A study of Homo sapiens with 5 samples.

Results

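The polyamine metabolism genes are 10 human genes that make, regulate or break down the polyamines: *ODC1*, *AMD1*, *SRM* and *SMS* for synthesis, *OAZ1*, *OAZ2* and *AZIN1* for regulation, and *SAT1*, *SMOX* and *PAOX* for catabolism. They were chosen by name from the 20033 protein-coding genes of chromosomes 1 to 22, X and Y, with earlier results of these data known. Every MYC or HSF1 peak was taken that touched the stretch from 5 kb upstream of the gene to its end in GENCODE release 44 on GRCh38. CUT&RUN, in which an antibody brings a nuclease to a protein so that the DNA beside it is cut out and sequenced, was performed in OVCAR8, an established human ovarian carcinoma cell line, for MYC (2 libraries), HSF1 (2 libraries) and IgG (1 library, the control). The cells were proliferating and untreated, the same in all 5 libraries, and 500000 cells per reaction were fixed with 1% formaldehyde for 1 minute. The authors describe both the *MYC* and the *HSF1* gene as amplified in OVCAR8. The labels do not say whether the 2 libraries of a factor came from separate cultures, so the spread between them may be technical. Peak lists hold binding and no expression, so the labelled cell type was not checked here against its markers.

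Polyamines (putrescine, spermidine and spermine) are small, positively charged molecules that bind nucleic acids and are needed by dividing cells. Ornithine decarboxylase makes putrescine, and spermidine synthase and spermine synthase then add aminopropyl groups taken from decarboxylated S-adenosylmethionine. Antizymes bind ornithine decarboxylase and send it to the proteasome, antizyme inhibitors bind the antizymes, and acetylation and oxidation turn spermine and spermidine back toward putrescine. MYC is a transcription factor that binds the E-box, with the letters CACGTG, together with MAX, and *ODC1* is a textbook MYC target. HSF1 is the main transcription factor of the heat shock response and binds repeats of GAA in alternating orientation.

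MYC was called at most of these genes and HSF1 at fewer. A MYC peak lay in both MYC lists at 6 of 10 genes (*ODC1*, *AMD1*, *SRM*, *OAZ1*, *AZIN1* and *SMOX*), while the same rule held for 45.4% of all protein-coding genes. The replicate 1 list had a peak at 9 of 10 genes, beside 63.3% of all genes, and the replicate 2 list had one at 6 of 10, beside 46.2%. The 3 genes with a MYC peak in replicate 1 only were *SMS*, *OAZ2* and *SAT1*, and no gene had one in replicate 2 only. These shares stand close to or somewhat above those of all genes, and with 10 genes a step of 1 gene is 10 percentage points.

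An HSF1 peak lay in both HSF1 lists at 3 of 10 genes (*SMS*, *OAZ1* and *AZIN1*), beside 7.81% of all protein-coding genes. Replicate 1 of HSF1 had a peak at 5 of 10 genes, beside 16.5% of all genes, and replicate 2 at 3 of 10, beside 12.3%. At least 1 HSF1 list had a peak at 5 of 10 genes, beside 21.1% of all genes, with *SAT1* and *SMOX* added from replicate 1 alone. A MYC peak and an HSF1 peak shared at least 1 bp at 4 of 10 genes (*OAZ1*, *AZIN1*, *SAT1* and *SMOX*), beside 16.8% of all genes. Matched by replicate number, the replicate 1 lists overlapped at 3 genes (*OAZ1*, *SAT1* and *SMOX*), beside 13.2%, and the replicate 2 lists at 2 (*OAZ1* and *AZIN1*), beside 6.96%. Only *PAOX* had no peak in any of the 4 lists, which was the case for 34.7% of all genes. The counts rested in part on single lists: without HSF1 replicate 1, HSF1 remained at 3 genes and the overlap at 2, and without MYC replicate 1 the overlap was also at 2. They were not tested, since the genes are not replicates and were chosen with earlier results of these data known.

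**Figure D1:**
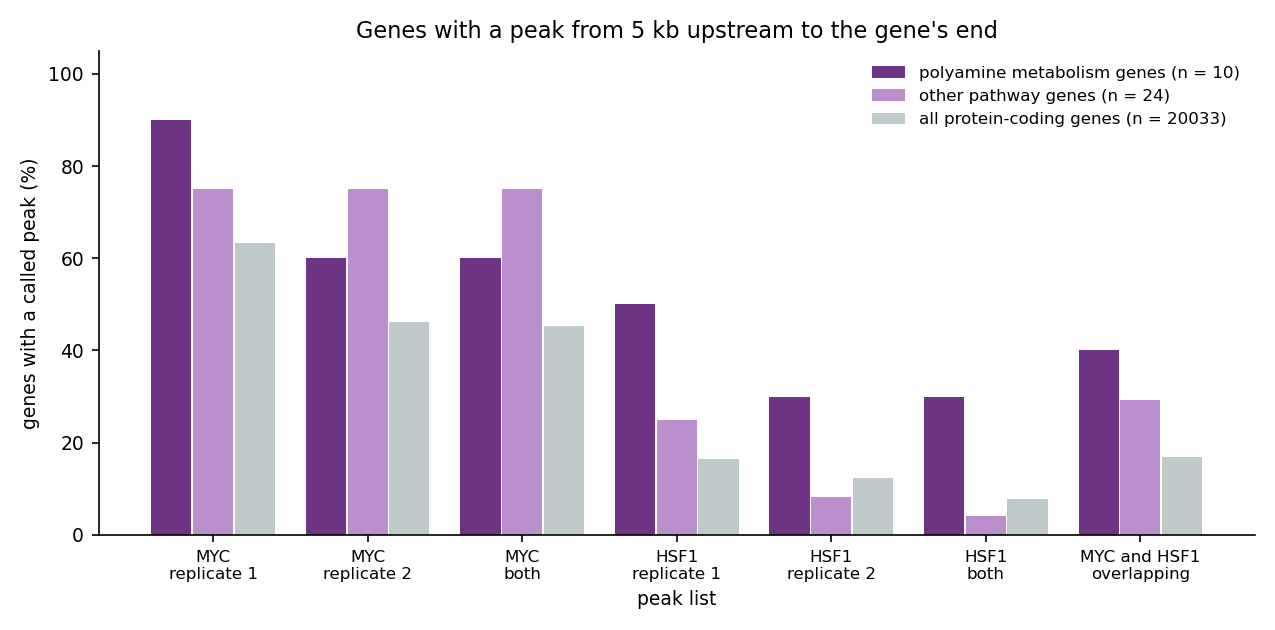
Share of genes (%) with a called peak from 5 kb upstream of the gene to its end, by peak list, for the 10 polyamine metabolism genes, 24 other genes of the pathway and all 20033 protein-coding genes. The MYC bars of the 10 genes are at 6 to 9 genes and the HSF1 bars at 3 to 5 genes, and a bar has no error since it is a single count.

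The length of the stretch searched bears on these counts. Its median was 19.1 kb for the 10 genes (range 8.04 to 72.8 kb), 32.5 kb for all genes and 39.5 kb for genes with a MYC peak in both lists. The 3 longest, *SMS* (59.1 kb), *SMOX* (71.8 kb) and *AZIN1* (72.8 kb), exceeded the median of all genes by far, and all 3 are among the 5 genes with an HSF1 peak. When a peak had to touch the 1 kb on either side of an annotated transcript start, all 6 genes kept MYC in both lists. The share of all genes under this rule was 40.1%. Under that rule HSF1 lay in both lists at 2 genes (*OAZ1* and *AZIN1*), beside 3.49% of all genes, and in at least 1 list at 3, beside 11.9%. MYC and HSF1 peaks then overlapped at 2 genes, beside 10.7%. At *AZIN1* the replicated HSF1 peak had its summits 1190 and 1205 bp from the gene's nearest annotated start. The HSF1 peaks of *AZIN1* with a summit within 1 kb of a start came from replicate 2 alone. Within 1 kb of the start of the gene's record, only *OAZ1* had HSF1 or an overlap. The share of all genes was not computed for that window.

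The libraries were of like depth, and the thresholds differed between factors. The 4 antibody libraries held 8265647 to 10084407 fragments after filtering. The MYC lists held 25646 and 13290 peaks called at a p-value threshold of 1e-10, and the HSF1 lists 6477 and 4492 peaks called at 1e-04. A gene without a peak in a list is therefore a gene with no call at that depth and threshold, and not one shown to be unbound. Antibody and threshold set the scale, so MYC and HSF1 fold enrichments were not compared with each other as levels. At genes known as targets of each factor, HSF1 fold enrichments were 23.9 and 52.4 at *HSPH1* and 25.1 and 31.4 at *DNAJB1*, which encode chaperones. MYC fold enrichments were 31.9 and 32.3 at *NCL* and 19.7 and 22.1 at *NPM1*, which encode nucleolar proteins and had no HSF1 peak. The chaperone genes also had MYC peaks in both lists, with fold enrichments of 33.3 and 23.01 at *HSPH1* and 37.9 and 20.9 at *DNAJB1*.

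Fold enrichment is the pileup of fragments at the summit of a peak, plus 1, over a background set by the peak caller with the IgG library as control. The background so computed had a lowest value in each list (1.559 and 1.719 for MYC, 1.601 and 1.535 for HSF1), which was shared by 12.8% to 16.7% of the peaks of a list. At the 10 genes this floor applied to 3 of 14 and 3 of 9 MYC peaks, *ODC1* in both lists among them, and to 1 of 5 and 1 of 6 HSF1 peaks, so at these peaks the fold enrichment follows the pileup alone. It is given for the strongest peak of a gene in each list, as the replicate 1 value and then the replicate 2 value. Distances run from the summit to the start of the gene's record, along the gene's own strand.

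**Figure D2:**
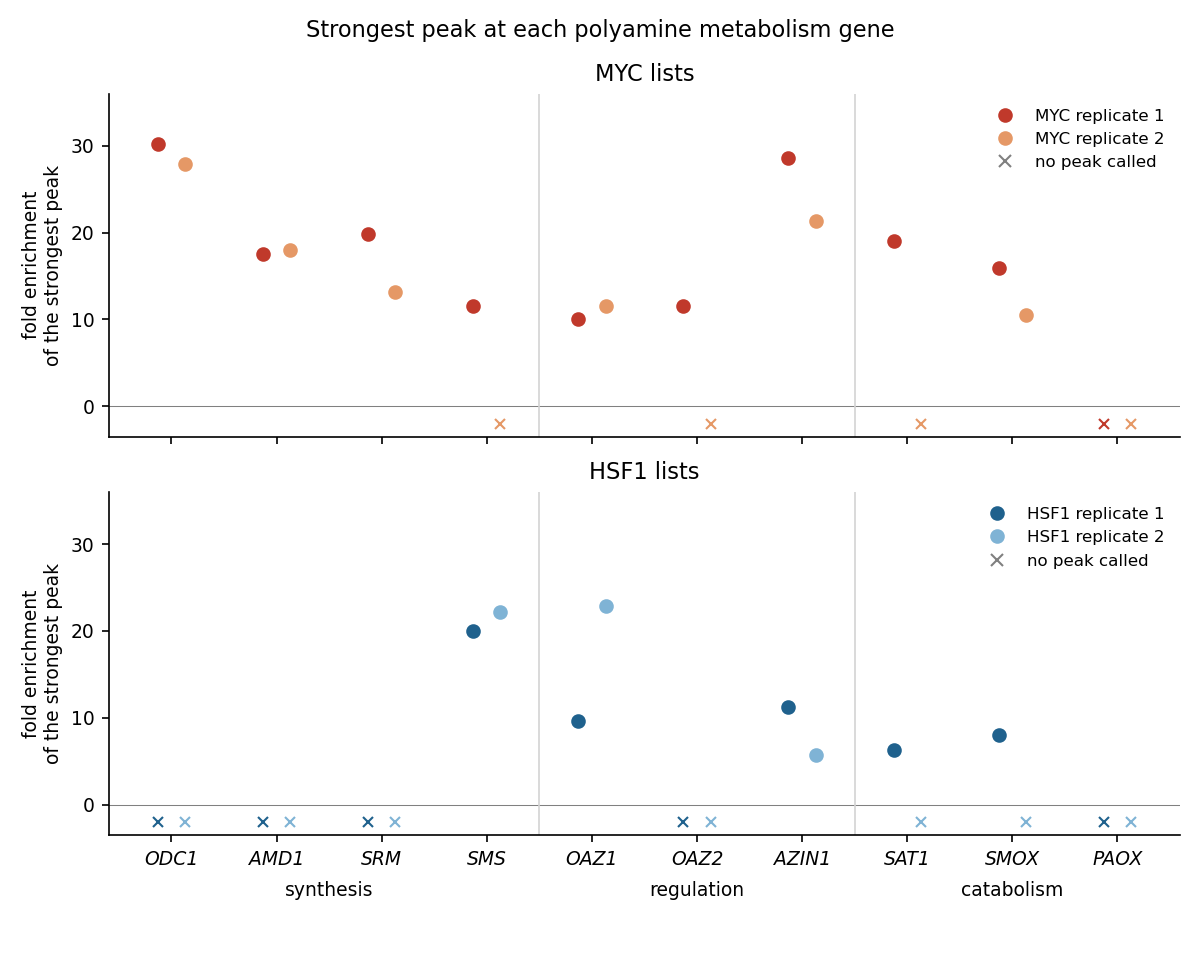
Fold enrichment over IgG of the strongest MYC peak (upper panel) and HSF1 peak (lower panel) at each of the 10 genes, with 1 point per peak list and a cross where no peak was called. *ODC1* had the highest MYC points (30.2 and 27.9) and no HSF1 point, whereas *SMS* had HSF1 points of 19.99 and 22.2 and a MYC point in 1 list only.

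*ODC1* (ENSG00000115758.14, chr2:10439968-10448327, minus strand) encodes ornithine decarboxylase, the first and rate-limiting enzyme of polyamine synthesis. Its MYC peak is shown by its E-boxes, since it had the highest fold enrichment of the 10 genes and held 3 of the 6 E-boxes found. Each line runs 5′ to 3′ on the gene's strand in GRCh38, with CACGTG in capitals and 22 bases on either side. A 250-base stretch just upstream of the start, from the RefSeq promoter table (GRCh38.p14), follows with CACGCGTG in capitals, in which the variant letters CACGCG occur on both strands and overlap.
ODC1 E-box at chr2:10448793-10448842, upstream: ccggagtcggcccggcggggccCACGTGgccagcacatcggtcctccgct
ODC1 E-box at chr2:10448014-10448063, intron 1: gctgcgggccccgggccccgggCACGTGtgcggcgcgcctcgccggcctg
ODC1 E-box at chr2:10447980-10448029, intron 1: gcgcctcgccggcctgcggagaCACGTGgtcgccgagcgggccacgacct
ODC1 promoter at chr2:10448328-10448577: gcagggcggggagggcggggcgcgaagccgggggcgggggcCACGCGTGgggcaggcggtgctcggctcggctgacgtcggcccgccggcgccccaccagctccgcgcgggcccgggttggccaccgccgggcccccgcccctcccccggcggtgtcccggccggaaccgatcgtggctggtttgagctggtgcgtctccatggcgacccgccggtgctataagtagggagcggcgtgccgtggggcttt

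The 2 MYC libraries gave nearly the same peak at *ODC1*. In replicate 1 it ran over chr2:10447664-10449495 with a fold enrichment of 30.2 and a pileup of 46, and in replicate 2 over chr2:10447599-10449461 with a fold enrichment of 27.9 and a pileup of 47. The mean was 29.0 ± 1.58 (SD, n = 2), and the peaks shared 1798 bp with summits 55 bp apart. These fold enrichments lay above 97.1% and 98.4% of the peaks of their lists. The peaks, at 1832 and 1863 bp, were wider than 98.7% and 98.1% of them. The summits lay 589 and 644 bp upstream of *ODC1*, and nearer, at 131 and 186 bp, to the start of *ODC1-DT*, a long noncoding RNA gene that leaves in the other direction. Peaks on such a shared promoter cannot be told apart by gene.

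The E-boxes of *ODC1* stood 493 bp upstream of its start and 286 and 320 bp downstream, inside intron 1. The center of the upstream one was 98 bp from the strongest summit, and part of it fell outside the 100 bp on either side of the summit that was searched. The merged peak also held 4 matches to CACGCG on either strand, 2 of which overlap in the promoter sequence printed for *ODC1*. HSF1 had no peak at *ODC1* in either list, and the nearest HSF1 summits lay 66.6 and 85.6 kb from its start.

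*AMD1* (ENSG00000123505.19, chr6:110874770-110898879, plus strand) encodes S-adenosylmethionine decarboxylase, which makes the aminopropyl donor. In MYC replicate 1 a single peak of 2751 bp covered chr6:110873901-110876651 with a fold enrichment of 17.5 and a pileup of 32, and it was wider than 99.9% of its list. Replicate 2 divided the same stretch into a peak at chr6:110873847-110874429 with a fold enrichment of 13.3 and one at chr6:110874677-110876651 with 18.0. The strongest peaks differed little in height between lists, with a mean of 17.8 ± 0.393 (SD, n = 2), but their summits lay 1075 bp apart, at 1667 and 592 bp downstream of the gene's start in intron 1. The merged peak held 1 E-box, shown here because it lies 1733 bp downstream of the start, in intron 1, close to the replicate 1 summit. HSF1 had no peak at *AMD1*, and its nearest summits were 609 and 604 kb away.
AMD1 E-box at chr6:110876481-110876530, plus strand: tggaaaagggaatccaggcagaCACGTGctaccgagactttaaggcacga

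*SRM* (ENSG00000116649.10, chr1:11054584-11060020, minus strand) encodes spermidine synthase. Its E-box is shown in its promoter because it was the only one of the 10 genes with CACGTG within 100 bp of the strongest MYC summit. The 250 bases upstream of the start are from the RefSeq promoter table (GRCh38.p14), 5′ to 3′ on the minus strand, with CACGTG in capitals.
SRM promoter at chr1:11060019-11060268: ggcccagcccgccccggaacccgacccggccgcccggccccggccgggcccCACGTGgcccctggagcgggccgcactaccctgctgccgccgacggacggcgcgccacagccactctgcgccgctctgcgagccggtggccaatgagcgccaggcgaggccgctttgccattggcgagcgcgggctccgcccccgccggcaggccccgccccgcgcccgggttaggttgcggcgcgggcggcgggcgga

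The MYC peak at the *SRM* promoter lay at chr1:11060047-11060625 in replicate 1, with a fold enrichment of 19.9 and a pileup of 30. In replicate 2 it lay at chr1:11060045-11060411, with a fold enrichment of 13.1 and a pileup of 23. The mean of 16.5 ± 4.77 (SD, n = 2) carried a wider spread than at *ODC1* or *AMD1*. The summits were 186 and 284 bp upstream of the start, and the center of the E-box, which begins 197 bp upstream, was 9 bp from the replicate 1 summit. A second, weaker MYC peak in intron 1 (chr1:11059599-11059778, fold enrichment 7.94) was called in replicate 1 alone. The nearest HSF1 summits were 203 and 875 kb from *SRM*.

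*SMS* (ENSG00000102172.16, chrX:21940709-21994837, plus strand) encodes spermine synthase and had HSF1 in both lists and MYC in 1. Its HSF1 peak in intron 1 is shown by the heat shock element inside it. This element was searched as 3 alternating GAA units on both strands, GAANNTTCNNGAA or TTCNNGAANNTTC, and stands in capitals with 22 bases of GRCh38 on either side.
SMS heat shock element at chrX:21943581-21943637, plus strand: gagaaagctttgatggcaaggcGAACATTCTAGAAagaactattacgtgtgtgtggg

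HSF1 replicate 1 had a peak at *SMS* over chrX:21943205-21944299, with a fold enrichment of 19.99 and a pileup of 31. Replicate 2 had one over chrX:21942692-21944310, with a fold enrichment of 22.2 and a pileup of 42. The mean was 21.1 ± 1.56 (SD, n = 2), and the replicate 1 peak lay wholly inside that of replicate 2 with summits 35 bp apart. The peaks ranked above 98.6% and 97.3% of their lists by fold enrichment, and they were wider than 98.9% and 99.1% of them. The summits lay 3075 and 3110 bp downstream of the start, and the element began 2894 bp downstream, with its center 210 bp from the replicate 2 summit. A further HSF1 peak, at chrX:21941879-21942071 with a fold enrichment of 4.56, was called in replicate 2 alone.

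MYC was called at *SMS* in replicate 1 only, at chrX:21940482-21940708 with a fold enrichment of 11.5 and a pileup of 17, and its summit was 205 bp upstream of the start. It did not overlap the HSF1 peaks. The nearest MYC summit of replicate 2 was 101 kb away, at *MBTPS2*. Of the 4 synthesis genes, *ODC1*, *AMD1* and *SRM* thus had MYC in both lists and HSF1 in none, and *SMS* had HSF1 in both and MYC in 1. Over all genes, 45.4% had MYC in both lists and 21.1% had HSF1 in at least 1. The share of all genes with either combination was not computed, so the split is not shown to be particular to these genes.

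*OAZ1* (ENSG00000104904.12, chr19:2269509-2273490, plus strand) encodes ornithine decarboxylase antizyme 1 and had MYC and HSF1 peaks at its start in all 4 lists. A heat shock element in intron 1 is printed on the plus strand with the 13-base element in capitals. It lay inside both HSF1 peaks and the MYC replicate 2 peak, but outside the MYC replicate 1 peak.
OAZ1 heat shock element at chr19:2269744-2269800, plus strand: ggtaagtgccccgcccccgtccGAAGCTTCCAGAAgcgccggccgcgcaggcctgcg

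The MYC peaks at the *OAZ1* start lay at chr19:2269357-2269708 with a fold enrichment of 10.1 and at chr19:2269523-2269792 with 11.5, a mean of 10.8 ± 1.01 (SD, n = 2). The HSF1 peaks lay at chr19:2269389-2269797 with a fold enrichment of 9.62 and at chr19:2269357-2269988 with 22.9, a mean of 16.2 ± 9.37 (SD, n = 2). HSF1 replicate 2 was thus 2.38 times replicate 1 at this gene. Every MYC peak at the start overlapped every HSF1 peak there, with 270 to 352 bp shared and summits 5 to 177 bp apart.

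The heat shock element of *OAZ1* began 257 bp downstream of the start, with its center 116 bp from the stronger HSF1 summit, and no E-box lay in the MYC peaks. The start of *JSRP1*, which runs the other way, was 103 bp from that summit and slightly nearer than an *OAZ1* start. A weaker MYC peak at the far end of the gene (chr19:2273324-2273563, fold enrichment 7.01) was called in replicate 2 alone.

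*OAZ2* (ENSG00000180304.14, chr15:64687573-64703281, minus strand), the gene of antizyme 2, had 1 peak in the 4 lists. It was a MYC replicate 1 peak at chr15:64702985-64703215 with a fold enrichment of 11.5 and a pileup of 17, and its summit lay 111 bp downstream of the start in exon 1. The nearest MYC summit of replicate 2 was 123 kb away. The peak held 1 match to CACGCG and no E-box.

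*AZIN1* (ENSG00000155096.15, chr8:102826111-102893864, minus strand) encodes antizyme inhibitor 1, which spares ornithine decarboxylase from antizyme. Its peaks lay around its canonical transcript start, 29701 bp downstream of the start of the gene's record. In MYC replicate 1 the stronger peak had a fold enrichment of 28.6 and a pileup of 55, and in replicate 2 it had 21.3 and 49, a mean of 24.9 ± 5.13 (SD, n = 2). The summits were 318 and 373 bp upstream of the canonical start. A second MYC peak in intron 1 was also called in both lists, with fold enrichments of 16.7 and 12.04 and summits 985 and 776 bp downstream of that start. The long noncoding RNA gene *MAILR* starts nearer to the stronger summits, at 23 and 78 bp. Another protein-coding gene, ENSG00000289653, starts nearer to the summits of the second peak, at 682 and 473 bp.

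HSF1 sat at *AZIN1* in a place that MYC did not share and, in 1 list, in places that it did. A peak in intron 1 had fold enrichments of 11.3 and 5.68 in the 2 HSF1 lists, a mean of 8.47 ± 3.95 (SD, n = 2), with summits 4871 and 4856 bp downstream of the canonical start and 15 bp apart. It held a heat shock element centered 185 bp from the stronger summit, and it also lay inside the neighboring gene ENSG00000289653. In HSF1 replicate 2 alone, peaks with fold enrichments of 5.49 and 5.22 overlapped the stronger and the weaker MYC peaks of both MYC lists. The nearest starts to their summits were those of *MAILR*, at 4 bp, and ENSG00000289653, at 811 bp. Over all its peaks *AZIN1* had MYC and HSF1 in all 4 lists, while the overlap itself rested on HSF1 replicate 2.

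The plot of peaks along the genes shows these positions to scale.

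**Figure D3:**
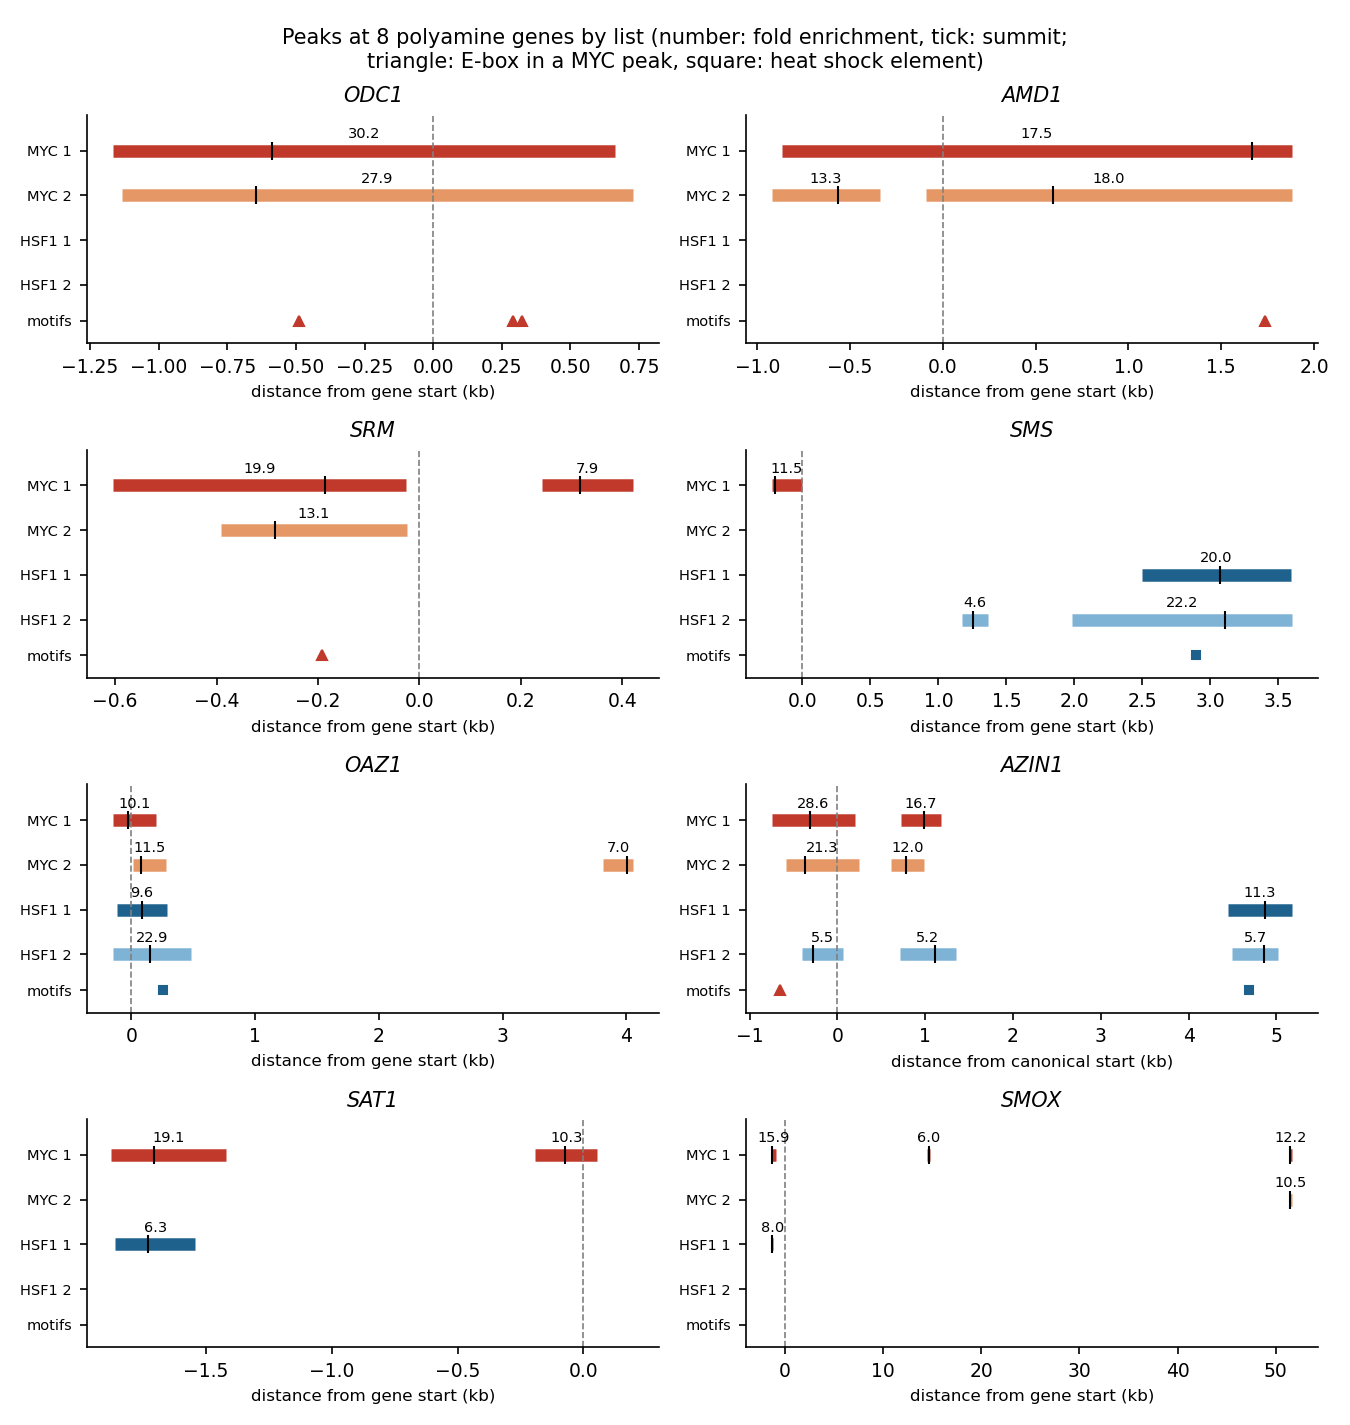
Called peaks at 8 of the 10 genes, 1 row per peak list, against the distance in kb from the gene's start (from the canonical transcript start for *AZIN1*), running in the direction of transcription. Bars are peaks, ticks are summits, numbers are fold enrichments, and triangles and squares mark E-boxes and heat shock elements. At *OAZ1* all 4 lists overlap at the start, at *SMS* the HSF1 peaks lie 3075 and 3110 bp inside the gene, and at *ODC1*, *AMD1* and *SRM* the HSF1 rows are empty.

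*SAT1* (ENSG00000130066.17, chrX:23783173-23786210, plus strand) encodes spermidine/spermine N1-acetyltransferase, the enzyme that starts polyamine breakdown. All its peaks came from the replicate 1 lists. MYC replicate 1 had a peak at chrX:23781296-23781752 with a fold enrichment of 19.1 and a pileup of 35, 1706 bp upstream of the start, and a weaker one at the start (chrX:23782981-23783228, fold enrichment 10.3). HSF1 replicate 1 had a peak at chrX:23781314-23781630 with a fold enrichment of 6.25. It lay wholly inside the stronger MYC peak, with 317 bp shared and summits 23 bp apart. In the replicate 2 lists the nearest summits were 40.2 kb away for MYC and 24.4 kb for HSF1, so neither peak at *SAT1* has a replicate call.

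*SMOX* (ENSG00000088826.18, chr20:4120980-4187747, plus strand) encodes spermine oxidase. A MYC peak deep in the gene was called in both lists, at chr20:4172325-4172638 with a fold enrichment of 12.2 and at chr20:4172365-4172590 with 10.5, and its summits lay 51489 and 51478 bp downstream of the gene's start, 759 and 748 bp from an annotated transcript start. In replicate 1 alone a stronger MYC peak lay 1291 bp upstream (chr20:4119606-4120038, fold enrichment 15.9). Another, at chr20:4135476-4135738, had a fold enrichment of 6.004. The mean over the strongest peak of each list, 13.2 ± 3.83 (SD, n = 2), therefore mixes different sites. HSF1 replicate 1 had a peak at chr20:4119606-4119788 with a fold enrichment of 8.04, wholly inside the upstream MYC peak, with 183 bp shared and summits 41 bp apart. The canonical transcript start of *SMOX* lies 27848 bp downstream of the start of the gene's record. The overlapping MYC and HSF1 summits were thus 29139 and 29180 bp upstream of the canonical start.

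*PAOX* (ENSG00000148832.16, chr10:133379261-133391694, plus strand) encodes polyamine oxidase, which acts on acetylated polyamines, and had no peak of either factor. The nearest MYC summits lay 5826 and 5726 bp upstream, just beyond the 5 kb searched. Their fold enrichments were 19.5 and 15.2, and they stood 81 and 181 bp from the start of the neighboring gene *ECHS1*. The nearest HSF1 summits lay 527 and 70.3 kb away.

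Ranked by mean MYC fold enrichment, the 6 genes with a MYC peak in both lists ran from *ODC1* (29.0) through *AZIN1* (24.9), *AMD1* (17.8), *SRM* (16.5) and *SMOX* (13.2) to *OAZ1* (10.8). With 2 values per gene, neighbors in this order overlapped, except that both values of *AZIN1* (28.6 and 21.3) exceeded both of *AMD1* (17.5 and 18.0). By mean pileup the order turned at both ends, with *AZIN1* (52) above *ODC1* (46.5) and *OAZ1* (25) above *SMOX* (23). The median of the 6 mean fold enrichments was 17.1. Over all 9103 genes with a MYC peak in both lists it was 14.8, with quartiles of 11.8 and 19.0. *ODC1* exceeded 95.7% of those genes and *AZIN1* 91.1%, whereas *OAZ1* exceeded 17.1% and *SMOX* 36.4%. Copy number at these genes was not measured here, so its part in the levels was not tested.

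**Figure D4:**
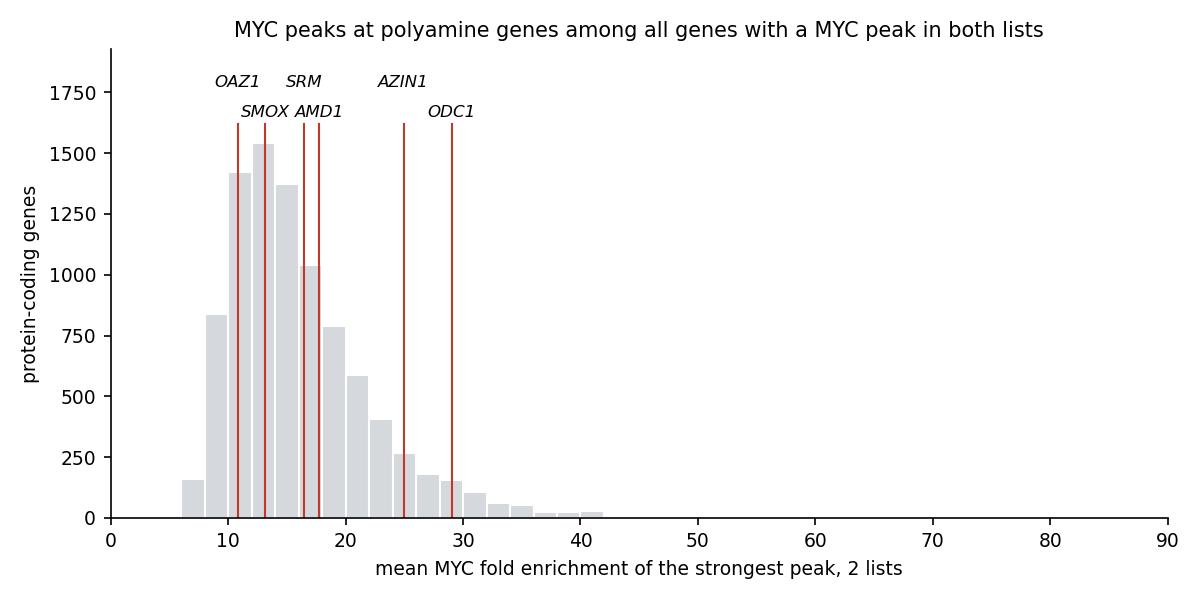
Number of protein-coding genes by mean MYC fold enrichment of the strongest peak over the 2 MYC lists, in steps of 2, for the 9103 genes with a MYC peak in both lists, with lines at the 6 polyamine genes. *ODC1* (29.0) and *AZIN1* (24.9) stand in the upper tail, and *OAZ1* (10.8) stands below the lower quartile of 11.8.

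Of 23 MYC peaks at these genes, counting each list separately, 20 (87.0%) had their summit within 1 kb of an annotated start of the gene, beside 62.5% of the 37131 pairs of a protein-coding gene and a MYC peak. Of 11 HSF1 peaks 4 did (36.4%), beside 40.8% of 7849 such pairs for HSF1. The HSF1 peaks away from a start were all 3 in intron 1 of *SMS*, both calls of the replicated one in intron 1 of *AZIN1* and those upstream of *SAT1* and *SMOX*. Peaks of the 2 lists at one gene are repeat calls of the same place, so these counts are a description.

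E-boxes and heat shock elements were counted in the peaks merged over the lists of a factor. The MYC peaks formed 15 intervals with 6 E-boxes, which lay in 4 of the 7 intervals called in both lists (at *ODC1*, *AMD1*, *SRM* and *AZIN1*) and in 0 of the 8 called in 1 list. The HSF1 peaks formed 8 intervals, and a heat shock element of 3 units lay in 3 of the 3 called in both lists (at *SMS*, *OAZ1* and *AZIN1*) and in 0 of the 5 called in 1 list. Intervals in both lists were longer, at 314 to 2805 bp against 180 to 457 bp for MYC and 632 to 1619 bp against 183 to 647 bp for HSF1. Longer intervals hold more letters, and the part of length was not tested.

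Over whole lists, CACGTG occurred in 18.5% and 21.3% of the MYC peaks and the 3-unit heat shock element in 10.2% and 13.6% of the HSF1 peaks. These are peaks of single lists, with median widths of 460 and 451 bp for MYC and 273 and 290 bp for HSF1. The share among merged intervals called in both lists was not computed over all genes. Within 100 bp of the summit the 3-unit element occurred in 6.51% and 5.97% of all HSF1 peaks, and at 0 of the 10 genes. Only *SRM* among the 6 genes had an E-box within 100 bp of its strongest MYC summit, which was the case at 8.4% of all genes with a MYC peak in both lists. Taken from the replicate 1 list alone, 2 genes had one. The RefSeq promoter table, with 300 bases per gene, held 7 of the 10 genes (all but *AZIN1*, *SMOX* and *PAOX*). *SRM* was the only one of these 7 with CACGTG in the promoter, beside 7.43% of 27305 promoters. None of the 7 held the 3-unit heat shock element, which occurred in 0.487% of all promoters. A match shows letters and not that the factor touched them.

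MYC was called at most genes of the wider pathway and HSF1 at fewer. Of 24 other genes that supply, salvage, use or transport polyamines and their precursors, 18 had a MYC peak in both lists (all genes, 45.4%). Each MYC list alone also gave 18, beside 63.3% of all genes in replicate 1 and 46.2% in replicate 2. HSF1 had a peak in both lists at 1 of the 24, beside 7.81%, and in at least 1 list at 7, beside 21.1%. Those 7 were also the genes where MYC and HSF1 peaks overlapped, beside 16.8% of all genes. No peak was called at 6 genes (*OAZ3*, *SATL1*, *ARG1*, *MAT1A*, *MRI1* and *ATP13A2*), beside 34.7% of all genes. The median of the mean MYC fold enrichments of the 18 genes was 18.4.

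By role, MYC lay in both lists at all 4 genes of hypusine, the modification of eIF5A that is made from spermidine. It did so at 4 of 5 genes of methylthioadenosine salvage, which recycles the by-product of aminopropyl transfer, and at 4 of 5 transport genes. The count was 5 of 7 for genes supplying ornithine or S-adenosylmethionine and 1 of 3 for further regulators and paralogs. The same rule held for 45.4% of all protein-coding genes. Groups of 3 to 7 genes are too small to set the roles apart. The highest mean MYC fold enrichment was at *SLC7A1*, a carrier of arginine and ornithine, with 34.0 and 40.0 (37.0 ± 4.26, SD, n = 2). *APIP*, of the salvage pathway, followed with 27.6 and 26.2 (26.9 ± 0.998), and *ADI1*, of the same pathway, with 35.3 and 14.3 (24.8 ± 14.9). The replicates were close at *APIP* and far apart at *ADI1*.

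*MAT2A*, which encodes the catalytic subunit that makes S-adenosylmethionine outside the liver, was the gene with HSF1 in both lists. Its HSF1 fold enrichments were 6.11 and 8.70 (7.40 ± 1.83, SD, n = 2), and its MYC fold enrichments were 26.8 and 19.1. HSF1 replicate 1 alone had peaks at *AZIN2* (fold enrichment 5.70), *APIP* (5.00), *DHPS* (4.06), *EIF5A* (3.77) and *MTAP* (3.75). HSF1 replicate 2 alone had one at *SLC7A1* (4.99), 73347 bp inside the gene. The single-list HSF1 values of the wider pathway thus ran from 3.75 to 5.70, beside medians of 5.00 and 5.20 over all peaks of the 2 HSF1 lists. The strongest HSF1 peaks at *SMS* and *OAZ1* had 9.62 to 22.9, those at *AZIN1* 11.3 and 5.68, and the single-list peaks at *SAT1* and *SMOX* 6.25 and 8.04.

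**Figure D5:**
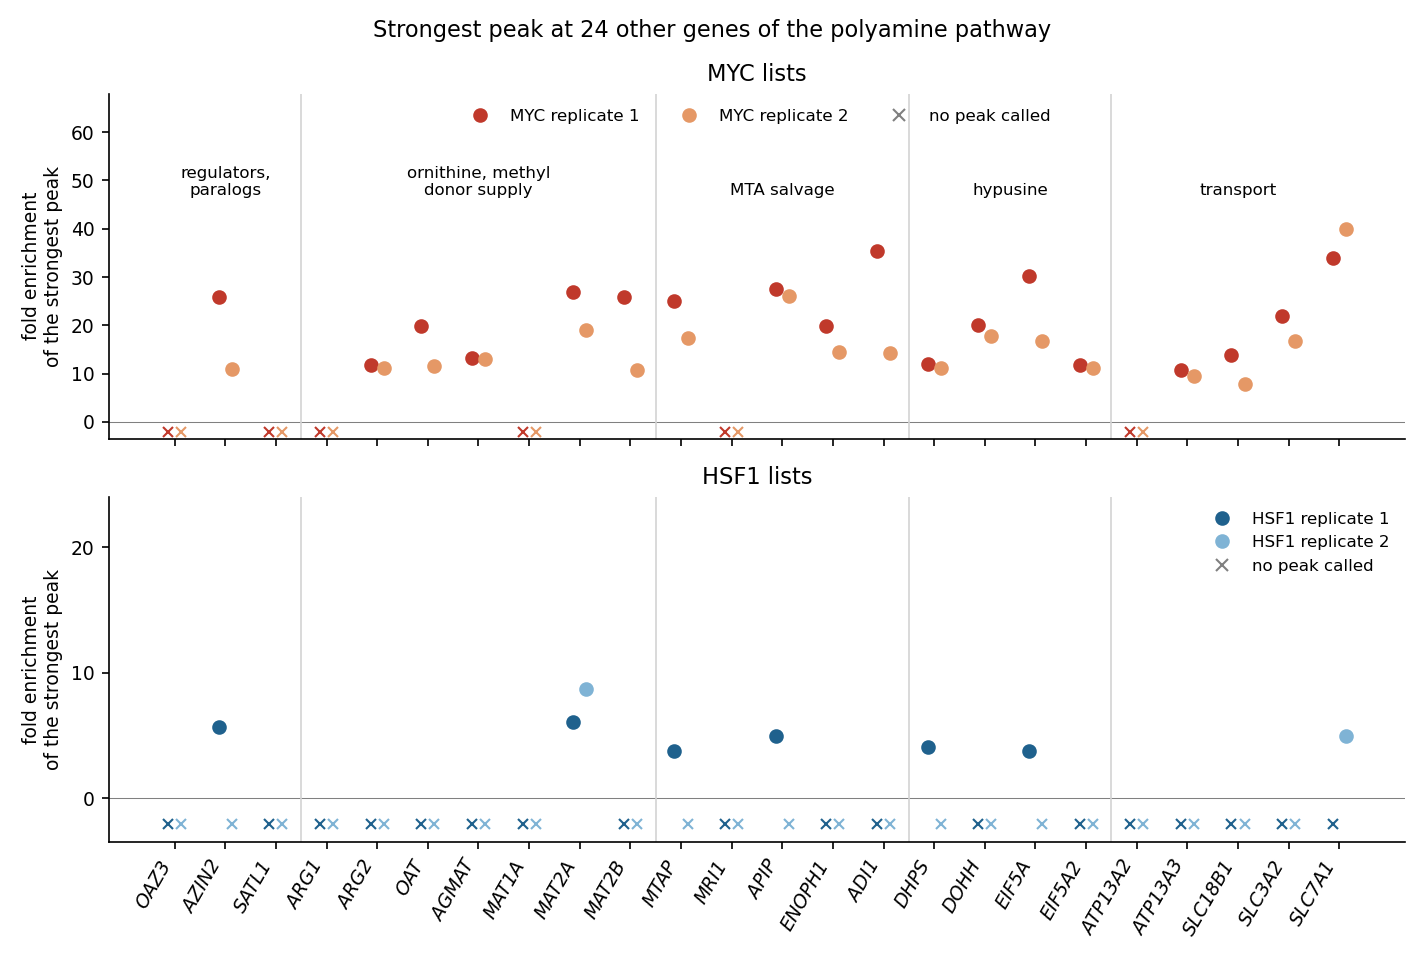
Fold enrichment over IgG of the strongest MYC peak (upper panel) and HSF1 peak (lower panel) at 24 other genes of the polyamine pathway grouped by role, with 1 point per list and a cross where no peak was called (MTA, methylthioadenosine). MYC points are present at 18 genes and HSF1 points at 7, of which *MAT2A* is the one with both lists.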

How the data were processed

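Peak lists of 2 MYC and 2 HSF1 CUT&RUN libraries from OVCAR8 cells were analyzed. The authors demultiplexed with bcl2fastq 2.20.0, aligned to GRCh38/hg38 with Bowtie2 and called peaks on each library separately with MACS 2.2.9.1 against 1 IgG library (9306942 fragments). SAMtools and bedtools are also named in the submitters' processing notes. The headers name the background as IgG replicate 2, whereas the labels list 1 IgG control. The deposited columns used here are the summit signal (fragment pileup), the fold enrichment and the call's −log10 p-value. The fold enrichment is a ratio of pileup plus 1 to the peak caller's background, which has a floor in each list. The deposited q-value column was not used, and the IgG library entered through the authors' calls alone.

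Gene windows, overlaps of at least 1 bp and motif matches were computed with Python 3.11.15, numpy 2.4.6, pandas 2.3.3 and pysam 0.24.0, and figures with matplotlib 3.10.9. The canonical transcript is that tagged in GENCODE 44. All 10 genes are named. Of the other pathway genes, those with an HSF1 peak and the 3 with the highest mean MYC fold enrichment are described. Genes and lists were chosen with earlier results of these data known. The lists hold no counts and 2 lists per factor, so no test was run. Depth (8265647 to 10084407 fragments) limits which peaks can be called. The window and motif steps were tested on simulated data in 20 runs. All 200 genes given a peak among 1000 were recovered with 0 false calls. All 50 windows given a motif among 100 were also recovered. The simulated sequence around the motifs held only the letters A and C, so a false motif call could not occur. Alternatives covered the window, the peak threshold, the assignment of peaks, the motif search and each list left out. A window around every transcript start was added after seeing the data.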

Additional observations from a re-analysis of the deposited data

How the results depend on the processing

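Of 69 values recomputed under other settings, 50 kept within the limits set for a change and 19 did not. These limits were wide for small counts. For MYC in both lists, 4, 7 and 9 genes were held as kept beside 6, and for HSF1 in both lists 2 beside 3. Of the 50 kept values, 12 were levels of single genes with 1 list left out. The number of genes with MYC in both lists, 6, was 4 with 1 kb around the gene's start, 5 without the upstream part, 7 with 10 kb upstream (*PAOX* added) and 5 at stricter thresholds, and 6 to 9 with a MYC list left out. HSF1 in both lists gave 3 genes, but 1 with 1 kb around the gene's start, 5 when 1 list was enough, 2 by the nearest start (*OAZ1* lost), 2 at stricter thresholds (*AZIN1* lost), 2 with 1 kb around any transcript start (*SMS* lost), and 3 to 5 with an HSF1 list left out. HSF1 in at least 1 list gave 5 genes, but 1 with 1 kb around the gene's start, 3 without the upstream part, 3 with 1 kb around any transcript start (a setting chosen after seeing the data), and 3 to 5 with an HSF1 list left out. Overlap of MYC and HSF1 gave 4 genes, but 1 with 1 kb around the gene's start, 2 without the upstream part, 2 at stricter thresholds (1e-10 for HSF1 and 1e-20 for MYC), 2 with 1 kb around any transcript start, and 2 to 4 with a list left out: 2 without MYC replicate 1, 2 without HSF1 replicate 1, 3 without HSF1 replicate 2 and 4 without MYC replicate 2. Narrower windows leave out peaks by construction. Among the alternative windows, the share of all genes was computed only for 1 kb around any transcript start. For the thresholds the cause was not tested.

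An E-box at the strongest MYC summit was found at 1 gene, but at 2 within 250 bp, at 4 in the whole merged peak, at 2 when CACGCG also counted, and at 1 to 2 with a MYC list left out. A heat shock element lay in an HSF1 peak of 3 genes, but at 0 within 100 bp of the summit. The median MYC level of 17.1 became 28.8 as pileup, which is another unit and turns the first and last ranks, and 15.6 to 18.7 with a MYC list left out. No paired analysis was possible because no result came from a test, and the overlap by matched replicate number is given with the results.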
